A study of Mus musculus with 6 samples.

Results

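Late neutrophil granule and surface genes are the 10 mouse genes Ltf, Camp, Ngp, Lcn2, Mmp8, Mmp9, Retnlg, Cd177, Ly6g and Chil3, out of 22180 genes that could be named on the array. They were chosen by name, with earlier results of these data known, so their counts beside the shares over all genes describe and do not test. Each was found on 1 probe set whose annotation gave 1 symbol, and 10 of 10 were among the 16635 genes tested. The 6 arrays held RNA of LT-HSC, long-term stem cells of the blood, which can rebuild every blood lineage, from bone marrow of mice of strain C57/BL6. Sorting took place 4 months after a marrow transplant. Of the arrays, 3 (NPMc+) held RNA from pools of animals expressing the mutant nucleophosmin NPMc+, and 3 (control) held RNA from pools of control animals labelled as reference. The labels used here do not say what drives the mutant gene, what the control mice carried, how many animals a pool held, their age or sex, or which surface markers defined the sort.

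Neutrophils build their granules in sequence as they mature in the marrow. Primary granules, with myeloperoxidase and elastase, are filled in promyelocytes. Secondary (specific) granules, with lactoferrin, cathelicidin, lipocalin 2 and collagenase, follow in myelocytes and metamyelocytes, and tertiary (gelatinase) granules with MMP9 come later. Transcription factors of the C/EBP family, C/EBP epsilon among them, are needed for secondary granule genes. Stem cells are not known to store these proteins, so the genes serve as markers of maturing neutrophils or their RNA.

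The sequence around the gene start is shown for 5 members, all of which hold the C/EBP letters given below. Not shown are Camp, Cd177 and Chil3, which lack these letters, and Retnlg, which has them. RefSeq windows (GRCm38.p6) of 300 bases, 250 before and 50 after the start, were held for 9 of the 10 genes, Mmp9 being the gene without one. They were searched on both strands for the C/EBP letters TTNNGCAA, the PU.1 letters GAGGAAG and the TATA letters TATAAA, and no match of one motif overlapped a match of another. Capitals mark the matches. The windows lie at chr9:111019042-111019341 (+ strand, Ltf), chr9:110419558-110419857 (+, Ngp), chr2:32387690-32387989 (-, Lcn2), chr9:7558179-7558478 (+, Mmp8) and chr15:75155011-75155310 (+, Ly6g).
Ltf: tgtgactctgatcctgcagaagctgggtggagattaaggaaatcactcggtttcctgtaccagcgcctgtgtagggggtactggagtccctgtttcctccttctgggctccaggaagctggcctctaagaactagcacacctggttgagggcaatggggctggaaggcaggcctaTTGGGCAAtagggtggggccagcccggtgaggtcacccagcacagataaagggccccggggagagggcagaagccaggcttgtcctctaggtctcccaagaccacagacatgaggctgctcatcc
Ngp: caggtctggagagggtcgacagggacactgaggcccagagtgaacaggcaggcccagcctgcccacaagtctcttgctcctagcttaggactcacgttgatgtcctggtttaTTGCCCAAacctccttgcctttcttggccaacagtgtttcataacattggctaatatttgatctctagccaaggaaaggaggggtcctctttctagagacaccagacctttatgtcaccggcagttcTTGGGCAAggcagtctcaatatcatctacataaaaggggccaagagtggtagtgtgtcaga
Lcn2: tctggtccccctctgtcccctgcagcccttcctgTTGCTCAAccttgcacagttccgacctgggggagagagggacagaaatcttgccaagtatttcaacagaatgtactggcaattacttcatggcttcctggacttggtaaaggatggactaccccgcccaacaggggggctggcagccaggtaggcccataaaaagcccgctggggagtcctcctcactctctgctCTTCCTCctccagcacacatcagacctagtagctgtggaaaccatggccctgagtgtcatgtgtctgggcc
Mmp8: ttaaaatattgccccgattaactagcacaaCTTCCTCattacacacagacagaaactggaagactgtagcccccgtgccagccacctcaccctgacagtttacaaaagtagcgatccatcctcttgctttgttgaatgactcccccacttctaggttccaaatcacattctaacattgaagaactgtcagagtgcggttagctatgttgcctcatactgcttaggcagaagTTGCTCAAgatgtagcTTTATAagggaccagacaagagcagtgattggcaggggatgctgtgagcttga
Ly6g: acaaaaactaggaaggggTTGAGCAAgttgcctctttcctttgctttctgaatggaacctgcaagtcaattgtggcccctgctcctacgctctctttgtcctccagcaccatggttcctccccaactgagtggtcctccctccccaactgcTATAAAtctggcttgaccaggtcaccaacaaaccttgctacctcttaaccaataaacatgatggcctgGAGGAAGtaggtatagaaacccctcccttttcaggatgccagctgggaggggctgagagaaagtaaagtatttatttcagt

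The 9 genes had 10 windows, since Ly6g has a second that overlaps the one shown. The C/EBP letters were found in 6 of the 10 windows, namely the 5 shown and that of Retnlg, but not in the second window of Ly6g. Of all 32851 windows of this length 10.8% held them, and of the 16045 windows of genes tested 9.13%. In Ltf the match lay 75 to 68 bases before the start, and in Ngp the match nearest the start lay 11 to 4 bases before it. PU.1 letters were found in 4 of the 10 windows (Lcn2, Mmp8 and both of Ly6g), against 13.6% of all windows and of those of genes tested. TATA letters were found in 5 (Mmp8, Cd177, Chil3 and both of Ly6g), against 13.6% of all windows and 9.12% of those of genes tested. Camp held none of these letters in its window. A match describes the letters and does not show that a factor binds there.

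All 10 genes had a lower mean in NPMc+ than in control LT-HSC samples, as had 45.1% of all genes tested, by 1.78-fold (Ngp) to 4.40-fold (Ly6g). For 6 of the 10 the mean was at least 2-fold lower, as for 0.92% of all genes. The median difference, NPMc+ minus control, was -1.15 log2 units, against 0.03 over all genes tested. The difference lay in 2 of the 3 pairs: the member median was -1.98 log2 units in pair 1, -1.61 in pair 2 and -0.07 in pair 3. In limma with the replicate number as a block, 9 of 10 genes were lower at an unadjusted p under 0.05, called a nominal difference from here on, where 3.02% of all genes tested were. None of the 10 passed the Benjamini-Hochberg adjusted threshold of 0.05 in limma (adjusted p 0.392 to 0.560), nor did any of the 16635 genes (0%; smallest adjusted p 0.0928). In these bulk samples, fewer neutrophil-lineage cells and less RNA of these genes per cell cannot be told apart.

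A property of the deposited values sets how the arrays can be read. The mean of the NPMc+ and control arrays of the same number was the same for pairs 1, 2 and 3 in 100% of the 41345 probe sets, within 0.001 log2 units, so an effect of the replicate number had already been taken out. Only the difference within a pair carries information, and the 6 values of a gene mirror each other around its mean. For the same reason, groups that do not overlap and a difference of the same sign in 3 of 3 pairs were the same observation for the 10 members and for all but 13 of the 16635 genes tested. A high NPMc+ value in pair 3 cannot be told apart from a low control value there. Errors are therefore given for the 3 pair differences. The limma p-values and SEs combine the spread between pairs of pools with that over all genes tested (2 residual and 4.537 prior degrees of freedom). An SD is of the 3 pair differences alone. For each member the limma SE was smaller than its 3 pairs alone would give, for Ltf 0.37 beside an SD of 1.04. The nominal calls thus rest in part on the spread of other genes. An exact sign-flip test over 3 pairs could not go below 0.25.

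**Figure D1:**
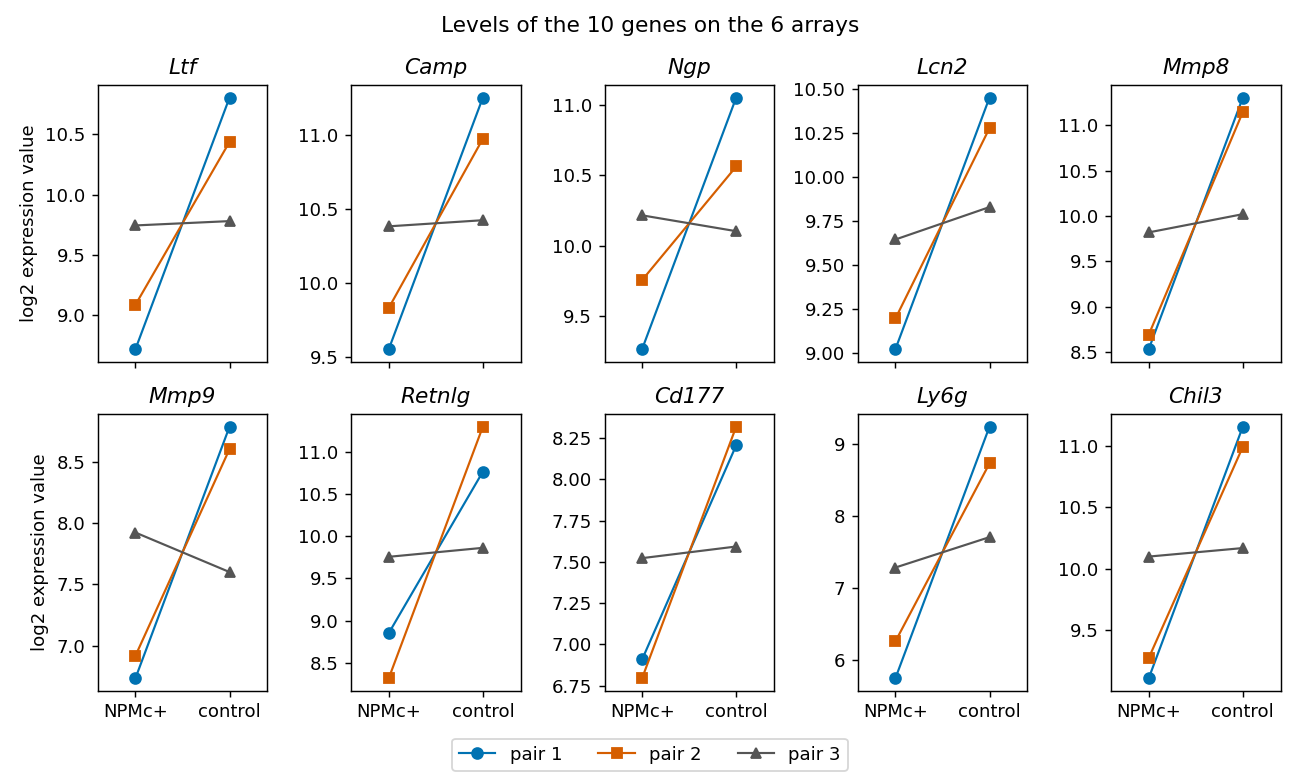
Log2 expression values (vertical axes, scaled for each gene) of the 10 genes on the 3 NPMc+ arrays (left) and the 3 control arrays (right), with lines joining same-numbered arrays. Pairs 1 and 2 are higher in control for every gene, while the line of pair 3 is nearly flat, with Mmp9 and Ngp slightly higher in NPMc+.

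Among secondary granule genes, Ltf encodes lactoferrin, an iron-binding antimicrobial protein. It measured 8.72, 9.09 and 9.74 log2 units in NPMc+ pools 1, 2 and 3, against 10.80, 10.44 and 9.78 in control pools 1, 2 and 3. The groups did not overlap, but their values in pair 3 were 0.04 log2 units apart. The mean difference was -1.16 ± 1.04 (SD, n = 3 pairs), a 2.23-fold lower level in NPMc+ (limma adjusted p 0.471, unadjusted p 0.0191).

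Camp encodes the precursor of the cathelicidin peptide of mouse neutrophils, and its levels followed the same order. NPMc+ pools had 9.55, 9.83 and 10.38 log2 units, against 11.25, 10.97 and 10.42 in control pools. The values of pair 3 were 0.04 log2 units apart. With equal pair means, the pair with the smallest difference always lies between the arrays of the others. Camp was 1.95-fold lower in NPMc+, by -0.96 ± 0.84 log2 units (SD, n = 3 pairs; limma adjusted p 0.476, unadjusted p 0.0217).

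Ngp, the neutrophilic granule protein gene, showed the smallest mean difference of the 10. Its values were 9.26, 9.76 and 10.22 log2 units in NPMc+, against 11.06, 10.56 and 10.10 in control. The groups overlapped, since in pair 3 NPMc+ was higher by 0.11. The difference of -0.83 ± 0.95 (SD, n = 3 pairs) had an unadjusted p of 0.0522 in limma (adjusted p 0.560) and a 95% interval from -1.67 to 0.01, so Ngp was the member that missed the unadjusted threshold.

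Lcn2 encodes lipocalin 2, which binds bacterial iron carriers. Levels were 9.02, 9.19 and 9.64 log2 units in NPMc+ pools, against 10.45, 10.28 and 9.83 in control pools. The groups did not overlap, and the pair differences of -1.43, -1.08 and -0.18 were the least scattered among the members. Their mean was -0.90 ± 0.64 (SD, n = 3 pairs), or 1.86-fold lower in NPMc+ (limma adjusted p 0.453, unadjusted p 0.0136).

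Mmp8, the neutrophil collagenase gene, differed more than the other secondary granule members. It measured 8.54, 8.69 and 9.82 log2 units in NPMc+, against 11.30, 11.15 and 10.02 in control. Within pair 1 the level was 6.81-fold lower in NPMc+ and within pair 2 it was 5.47-fold lower, but within pair 3 only 1.15-fold. The mean difference was -1.81 ± 1.40 (SD, n = 3 pairs), 3.50-fold, with limma adjusted p 0.410 and unadjusted p 0.00795.

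Mmp9 encodes gelatinase B, the enzyme that defines tertiary granules. Its levels were 6.73, 6.92 and 7.92 log2 units in NPMc+ pools, against 8.79, 8.61 and 7.60 in control pools. The groups overlapped because pair 3 ran the other way, with NPMc+ higher by 0.32. Averaged over pairs, Mmp9 was 2.21-fold lower in NPMc+ (-1.14 ± 1.28 log2 units, SD, n = 3 pairs; limma adjusted p 0.531, unadjusted p 0.0393).

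Of the surface proteins, Cd177 is a neutrophil antigen that is also carried on specific granule membranes. NPMc+ samples had 6.91, 6.80 and 7.52 log2 units, against 8.21, 8.32 and 7.59 in control samples. The groups did not overlap and stood 0.07 apart in pair 3. Cd177 was 1.95-fold lower in NPMc+, by -0.96 ± 0.78 (SD, n = 3 pairs; limma adjusted p 0.465, unadjusted p 0.0172).

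Ly6g, the surface antigen used to identify mouse neutrophils, had the largest mean difference of the 10 genes. It measured 5.74, 6.25 and 7.28 log2 units in NPMc+, against 9.25, 8.74 and 7.71 in control. Control exceeded NPMc+ 11.4-fold in pair 1, 5.59-fold in pair 2 and 1.34-fold in pair 3, the last being the widest gap of any member in that pair in the direction of control. The mean difference of -2.14 ± 1.57 (SD, n = 3 pairs), 4.40-fold, ranked 14 from the lowest among the 16635 genes (limma adjusted p 0.392, unadjusted p 0.00577).

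Secreted products of maturing neutrophils gave a like picture. Retnlg encodes resistin-like gamma and had 8.85, 8.32 and 9.76 log2 units in NPMc+, against 10.77, 11.30 and 9.86 in control. Here pair 2 held the largest difference, -2.98, while pair 1 had -1.92 and pair 3 -0.11. The level was 3.18-fold lower in NPMc+ (-1.67 ± 1.45 log2 units, SD, n = 3 pairs; limma adjusted p 0.452, unadjusted p 0.0133).

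Chil3 encodes the chitinase-like protein Ym1, made by neutrophil precursors and by some macrophages. Its values were 9.11, 9.28 and 10.10 log2 units in NPMc+, against 11.15, 10.99 and 10.17 in control. The groups did not overlap and pair 3 differed by 0.07. Chil3 was 2.42-fold lower in NPMc+ (-1.27 ± 1.06 log2 units, SD, n = 3 pairs; limma adjusted p 0.453, unadjusted p 0.0134) and lay closest to the members' mean pattern over the 3 pairs.

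**Figure D2:**
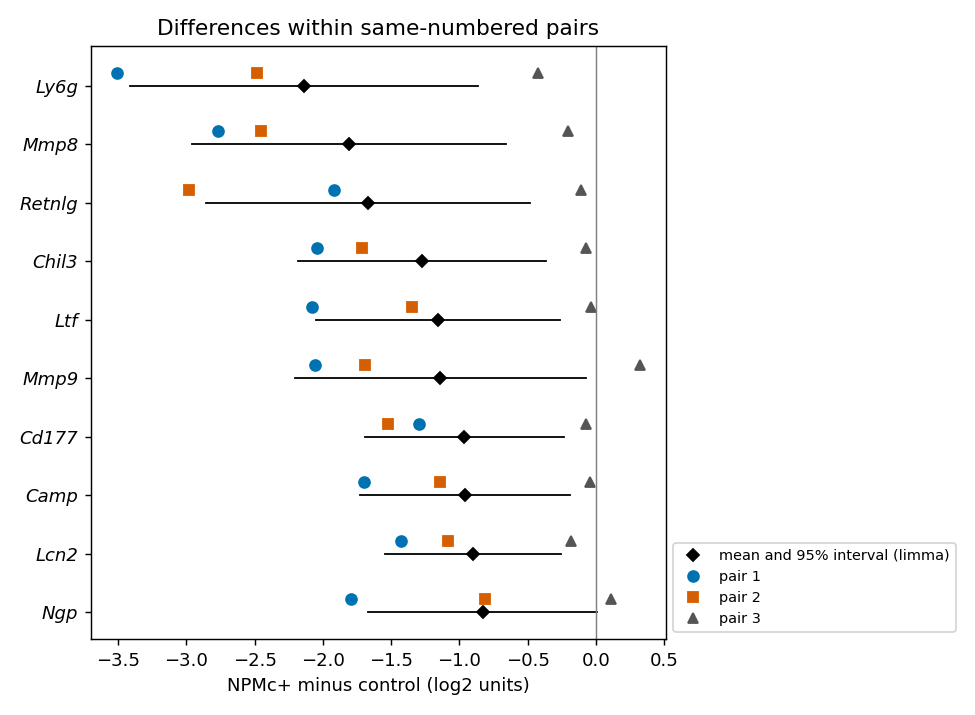
Differences of NPMc+ minus control in log2 units (horizontal axis) for each gene (rows), with coloured symbols for pairs 1, 2 and 3 and a black diamond with line for the mean and 95% interval in limma. Pair 3 stays within 0.5 log2 units of 0 for all 10 genes, and the interval of Ngp reaches past 0.

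Side by side, the members shared their order over the pairs. All 10 were lower in NPMc+ in pair 1, as were 49.5% of all genes tested, and in pair 2, as were 45.5%. All 10 were also nearest to 0 in pair 3, for which no share over all genes was taken. Differences spanned -3.51 to -1.30 log2 units in pair 1, -2.98 to -0.81 in pair 2 and -0.42 to 0.32 in pair 3. For 8 of 10 genes pair 1 held the larger difference, the exceptions being Retnlg and Cd177. Lower values in 3 of 3 pairs, without overlap of the groups, were found for 8 of 10 members and for 12.8% of all genes tested. Within pair 1, 10 members were at least 2-fold lower in NPMc+ (1.64% of all genes tested), within pair 2 there were 9 (2.43%), and within pair 3 there were 0 although 2.5% of all genes were.

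Leaving out a pair showed which arrays the calls rested on. Without pair 1, only Ly6g was nominally lower in limma (1 of 10; 2.61% of all genes tested), and the median difference was -0.74 log2 units. Without pair 2 there were 2, Ly6g and Mmp8 (2.94% of all genes), with a median of -0.94. Without pair 3 all 10 were called (2.93%) and the median was -1.79; Mmp8 and Ly6g then had limma adjusted p-values of 0.0239 and 0.0255, among 24 genes of the whole table (0.144%). Every such fit, with 1 residual degree of freedom, kept the sign of all 10 differences, which follows from the pair differences above.

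**Figure D3:**
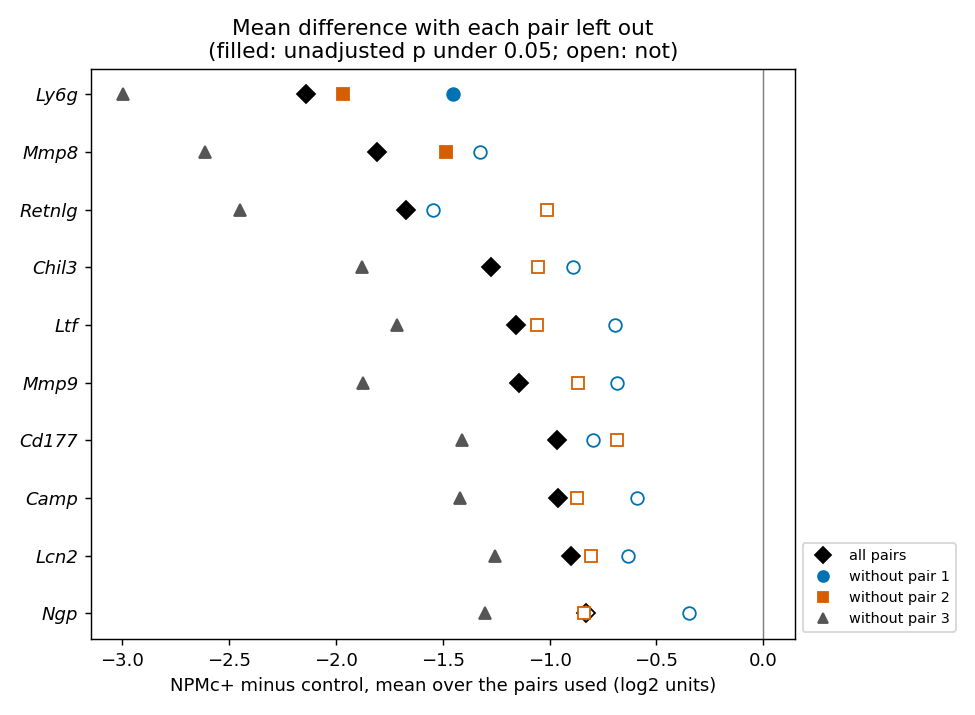
Mean difference of NPMc+ minus control in log2 units (horizontal axis) for each gene (rows) over all pairs and with each pair left out, with filled symbols for an unadjusted limma p under 0.05. Values stay below 0 throughout, but without pair 1 the filled symbol is Ly6g alone.

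The sex-linked RNA Xist, made from the inactive X chromosome, had the same unevenness over the pairs. Its differences were -5.44, -5.39 and 0.48 log2 units in pairs 1, 2 and 3. Of Y chromosome genes, Uty differed by 4.68, 0.93 and 0.35, Kdm5d by 3.48, 1.29 and -0.67, and Eif2s3y by 5.49, 0.36 and -0.79. Pools that differed in neutrophil genes thus also differed in Xist, and the part of this in the neutrophil result was not tested.

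Other genes of secondary and tertiary granules were described next, from a list of 14 of which 13 were tested. Of these, 5 were nominally lower in NPMc+ and 0 nominally higher (3.02% and 5.95% of all genes tested), with a median of -0.48 log2 units. The 5 were Olfm4, Chil1, Cybb, Adam8 and Lyz2. Olfm4, the gene of olfactomedin 4, a secondary granule protein of some neutrophils, was 3.52-fold lower (-1.82 ± 0.25 log2 units, SE; limma adjusted p 0.245). It departed from the 10 genes in its pairs, which read -1.22, -1.85 and -2.38, so that pair 3 held the largest difference. Cybb, the NADPH oxidase chain stored in secondary granule membranes, had -1.67, -1.92 and -0.10. Adam8, a membrane protease, had -1.62, -1.61 and 0.21, and the lysozyme gene Lyz2 had -1.02, -0.86 and 0.03.

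A second list held 26 other late neutrophil genes, such as receptors and cytosolic proteins, of which 22 were tested. In NPMc+, 11 were nominally lower and 0 nominally higher (3.02% and 5.95% of all genes tested). The median was -0.72 log2 units, with pair medians of -0.69, -1.16 and -0.16. The mean difference was below 0 for 19 of the 22, as for 45.1% of all genes tested, and above 0 for 3. Il1b, the gene of the cytokine interleukin-1 beta, was 7.14-fold lower (-2.84 ± 0.53 log2 units, SE; limma adjusted p 0.296). In pair 3 its difference was -1.07, whereas no member passed -0.42 there. Ifitm6 was 4.62-fold lower and Stfa2l1, a stefin gene, 4.79-fold lower, with pair 3 differences of -0.74 and -0.60. Mcemp1 was 2.67-fold lower and Trem1, a receptor that amplifies inflammatory signals, 1.65-fold lower.

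Primary granule genes were examined beside the late genes. Of 10 tested, 0 were nominally lower in NPMc+ and 1 was nominally higher, with a median of 0.20 log2 units. Both counts are near the shares over all genes tested, 3.02% lower and 5.95% higher. Prss57, a neutrophil serine protease gene, was the 1, at 1.50-fold higher (0.58 ± 0.19 log2 units, SE; limma adjusted p 0.471). Mpo, the myeloperoxidase gene, differed by 0.27, 0.24 and -0.0027 log2 units in pairs 1, 2 and 3. Elane, the elastase gene, differed by 0.57, 0.42 and -0.01, and Prtn3, the proteinase 3 gene, by 0.57, 0.97 and -0.44. Ctsg differed by 0.47, 0.13 and -0.55. Ctsc, the 1 gene of this list with a mean below 0 (-0.25), differed by 0.79, -0.69 and -0.85. Over the 10 genes the pair medians were 0.56, 0.16 and -0.01, while those of the late members were -1.98, -1.61 and -0.07. The difference between these lists was not tested.

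Among 7 transcription factors of granulocyte development, 0 differed nominally in limma. Over all genes tested 3.02% were lower and 5.95% higher, so a count of 0 among 7 is near those shares. Cebpe, which encodes C/EBP epsilon, was 1.30-fold higher in NPMc+ on average (0.38 ± 0.19 log2 units, SE; unadjusted p 0.0859, adjusted p 0.623), with pair differences of 0.22, 0.28 and 0.63. Its level was 7.11, 7.15 and 7.32 log2 units in NPMc+, against 6.90, 6.86 and 6.69 in control. Gfi1, a repressor needed for neutrophil formation, differed by 0.40 ± 0.19 (SE), Cebpa by 0.34 ± 0.23, Runx1 by 0.29 ± 0.23 and Spi1, the PU.1 gene, by 0.00 ± 0.20. Of the other C/EBP genes, Cebpb differed by -0.19 ± 0.23 and Cebpd by -0.22 ± 0.21 (SE).

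**Figure D4:**
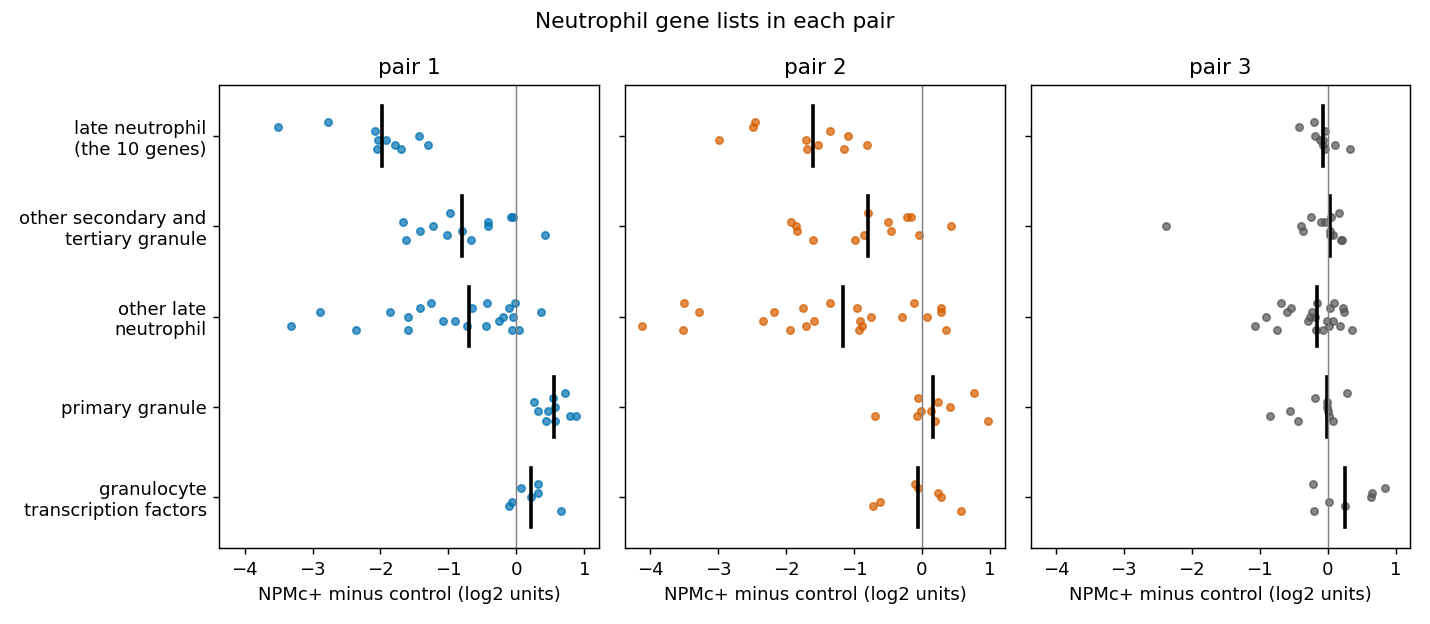
Differences of NPMc+ minus control in log2 units (horizontal axes) for single genes (points) of 5 neutrophil lists (rows) in pairs 1, 2 and 3 (panels), with a black bar at each list's median. The medians of the 3 late lists lie left of 0 in pairs 1 and 2, at -1.98 and -1.61 for the 10 genes. In pair 3 these medians lie within 0.2 log2 units of 0, and single genes such as Olfm4 (-2.38) stand apart. All 10 primary granule genes lie to the right of 0 in pair 1, where 49.5% of all genes tested lay below 0. The primary granule medians in pairs 2 and 3 were 0.16 and -0.01.

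Close relatives of the members on the array were examined because similar sequences can share probes. Of 11 listed, 6 were tested, and 0 differed nominally in limma, a count near the shares over all genes tested (3.02% lower, 5.95% higher). Ly6c2, of the same gene cluster as Ly6g and a marker of monocytes, differed by 0.26, -0.31 and -0.17 log2 units in pairs 1, 2 and 3. The list did not hold every Ly6 gene. Outside it, Ly6a2 and Ly6d, met again below, had mean differences of -0.70 and -1.09 log2 units, and Ly6h had 0.02. These were named after their values were seen, and whether they share probes with Ly6g was not tested. Retn and Retnlb, relatives of Retnlg, differed by -0.12 ± 0.22 and -0.09 ± 0.23 (SE). Chil5 differed by -0.67 ± 0.29 (SE), with 0.06, -0.69 and -1.38 in the pairs, an order unlike that of Chil3. Chil4, the gene most like Chil3, had a mean below the filter and was not tested.

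Of genes outside all lists, the 8 whose 3 pair differences lay nearest to the members' mean were Pilra, Xdh, Slfn2, Cd226, Acod1, Stfa3, Ly6d and Gm20559. Nearness was the Euclidean distance over the 3 pairs, in log2 units. Pilra, an inhibitory receptor gene of myeloid cells, had a distance of 0.06, with differences of -2.02, -1.69 and -0.03. Distances of the members themselves ran from 0.02 (Chil3) to 1.67 (Ly6g), and the 8 genes lay between 0.06 and 0.79. With 3 values a gene, the ranking describes these pools and carries no test.

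The lists above and markers of other cell types were read against the label LT-HSC. The 10 neutrophil probe sets had gene means at the 87.8 to 99.0 percentile of all 22180 genes, in samples sorted as stem cells. Summed linear signals over the 10 members were 3975 to 7629 in NPMc+ arrays, against 7977 to 15649 in control arrays. Both 7629 and 7977 were the sums of pair 3. The ranges in this paragraph are over arrays and not within pairs. Nominal differences are counted below for each list, where 3.02% of all genes tested were lower and 5.95% higher. For 10 LT-HSC markers the sums were 2454 to 2789 in NPMc+, against 1531 to 1703 in control, of which 5 were nominally higher and 0 nominally lower. Monocyte markers (13 tested, 5 lower and 0 higher) summed to 3465 to 4193 in NPMc+, against 3982 to 4839 in control. B cell markers (7 tested, 5 lower, 0 higher) summed to 209 to 235 in NPMc+, against 476 to 510 in control. Erythroid markers (6 tested, 5 lower, 0 higher) summed to 444 to 520 in NPMc+, against 780 to 931 in control. T and NK cell markers (7 tested, 5 lower, 1 higher) had a median difference of -1.33 log2 units. They summed to 1222 to 1404 in NPMc+, against 1136 to 1341 in control, and without Nkg7, the 1 higher gene, named after its value was seen, to 105 to 133 in NPMc+, against 300 to 390 in control. Megakaryocyte markers (5 tested, 0 lower, 5 higher) summed to 674 to 991 in NPMc+, against 294 to 441 in control. No list had a marker at 0, since values of this kind have no zero. In pair 3, where the late neutrophil median was -0.07, the B cell median was -1.86, the T and NK cell median -1.35 and the erythroid median -0.88 log2 units. The monocyte median there was -0.39, the LT-HSC median 0.64 and the megakaryocyte median 1.28 log2 units. The part of these lists in the neutrophil result was not tested.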

How the data were processed

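For 3 NPMc+ and 3 control arrays, the authors deposited 1 table of log2 expression for 41345 probe sets. The submitters' processing notes name RMA, which corrects background, normalizes arrays and summarises probes; no version or later step is given in the sources used here. About 5 ng of total RNA was amplified per the labels' protocols. Array medians were 3.90 to 3.99 log2 units; the number of arrays limits precision.

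Of the probe sets, 23521 had 1 symbol, 1814 several and 16010 none in the platform annotation; 23328 symbols matched RefSeq names (GRCm38.p6) and 0 changed. Each of 22180 genes was represented by its probe set with the highest mean, and those with means under the 25th percentile were left out, leaving 16635. Within each pair the NPMc+ and control arrays deviated from the group means with a correlation of -1, because pair means are equal in the deposited values. The replicate number from the titles was therefore a block in limma 3.58.1 (R 4.3.3; lmFit and eBayes, two-sided, 2 residual and 4.537 prior degrees of freedom), with Benjamini-Hochberg adjustment over all genes tested. The fit was tested on simulated data. Figures used matplotlib 3.10.9 in Python 3.11.15. Members and lists were chosen with earlier results of these data known, and the promoter motifs and the chromosomal neighbours after the values were seen. The text names all members, at most 5 genes of smallest p from each other list, freely from the primary granule, transcription factor, relative and sex-linked lists, and the 8 genes nearest in pattern. Alternatives covered the block, filter, normalization, prior trend, probe set rule and each pair left out.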

Additional observations from a re-analysis of the deposited data

How the results depend on the processing

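The fit with no replicate block gave 10 of 10 members lower at an unadjusted p under 0.05 (9.85% of all genes tested) and 0 past the adjusted threshold in limma, where 828 of all genes passed (4.98%); it assumes 4 residual degrees of freedom, but 3 pair differences leave 2. The intensity trend also gave 10 (3.39% of all genes tested). No filter (3.07% of all genes tested), genes above the 50th percentile (3.04%), quantile normalization (3.34%) and the mean of all probe sets (3.03%) each gave 9. None of these brought a member past the adjusted threshold. Each member had 1 probe set, so the mean of all probe sets left its values unchanged. With 1 pair left out, the count at an unadjusted p under 0.05 ranged from 1 to 10 (2.61% to 2.94% of all genes tested). The count past the adjusted threshold ranged from 0 to 2 (0% to 0.144%), and the median difference from -1.79 to -0.74 log2 units. Each such mean is over the pairs kept, so the shift in the median follows from the pair differences. Why pair 3 differed from pairs 1 and 2 was not tested. After quantile normalization the median difference was -1.18, and 8 members were lower in 3 of 3 pairs. In the main values 8 members were too, beside 12.8% of all genes tested. No member's difference changed sign under any alternative run, but of these only quantile normalization could have changed one. The block, trend and filter settings leave the mean difference as it is. The signs with a pair left out follow from the pair differences. Over all alternatives, limma adjusted p-values ranged from 0.0239 to 0.711 for Mmp8 and from 0.0255 to 0.689 for Ly6g. No background measurement was used, so the share of signal above background is unknown.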

Other observations

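Camp, Ngp and Ltf lie near each other on chromosome 9, in that order in the RefSeq table. The 25 tested genes between Camp and Ltf, other than members, had a median difference of 0.11 log2 units, NPMc+ minus control, from -0.39 to 0.53, with 0 nominally lower and 1 nominally higher in limma (3.02% and 5.95% of all genes tested). Of 40 tested genes flanking the 10 members, 2 on either side of each, 2 were nominally lower and 1 was nominally higher, with a median of -0.04, counts near those shares. The 2 lower genes were Ceacam10, beside Cd177, at -1.79 log2 units, and Ly6a2, beside Ly6g, at -0.70. They were named after their values were seen.

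Pair 3 was not flat for every gene. Over all genes tested, 1.64% were at least 2-fold lower in NPMc+ within pair 1, 2.43% within pair 2 and 2.5% within pair 3. Olfm4, Il1b and Ly86, a gene of B cells and monocytes, were among the listed genes with differences there, at -2.38, -1.07 and -1.16 log2 units.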
